A study of Mus musculus with 6 samples.

Results

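The genes of glycogen metabolism described here are 9 genes that make, break down or regulate the liver's glucose store, kept by symbol from the matrix of counts: Ugp2, Gyg, Gys2 and Gbe1 for synthesis, Pygl and Phka2 for breakdown, and Ppp1r3b, Ppp1r3c and Ppp1r3g for the subunits that hold protein phosphatase 1 on glycogen. They are 9 of the 55487 genes in the matrix and were listed by function. Of the 14046 genes with enough counts to be tested, 8 are among the 9, and Ppp1r3g was too low. RNA was sequenced from the livers of 6 wild-type mice kept on normal chow, 3 injected subcutaneously with GalNAc-siNC and 3 with GalNAc-siRnf10, with livers taken at 17 weeks of age and all mice labelled as batch 1. The study's methods describe male C57BL/6J mice and call the conjugate of this experiment GalNAc-siRnf10-2. GalNAc is a sugar ligand that the asialoglycoprotein receptor takes up into hepatocytes, siRnf10 is a small interfering RNA against Rnf10, which encodes a RING-type ubiquitin ligase, and siNC is a control siRNA coupled to that ligand too. The study sequenced these livers to look for effects of the conjugate on genes other than its target, and its labels describe the comparison as one of liver expression with and without Rnf10 knockdown. The hour of collection and the feeding state at collection were not given in the sources used here.

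Total counts were between 28430868 and 33058645 per GalNAc-siNC mouse and between 26854377 and 31621131 per GalNAc-siRnf10 mouse, so that 3 counts were at most 1.12e-05% of a library, counting error only. Normalized counts of Rnf10, the targeted gene, were 3869, 4536 and 4040 in the GalNAc-siNC mice and 1738, 1820 and 1793 in the GalNAc-siRnf10 mice. Rnf10 was thus low in every mouse labelled as treated (log2 fold change -1.22, adjusted p = 3.29e-09, edgeR). GalNAc-siNC mouse 1 stood apart from the other mice of its group, with a chi-square of 30.7 and 30 per gene against them, where the other control pair gave 10.3 and the treated pairs 4.7 to 5.37. The fold changes of the 8 tested genes are therefore given with and without this mouse, while levels, shares and ratios are given for every mouse or as means over all. Of the defining markers of other tissues, the skeletal muscle genes Acta1 and Myh4 and the pancreatic gene Cpa1 were at 0 in all 6 livers, and the hepatocyte gene Alb had the mean normalized counts of 1159043 and 1805569 in the control and treated groups.

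As background, hepatocytes store glucose as glycogen after a meal and release it between meals. Glucose is turned into UDP-glucose, glycogenin starts the chain, glycogen synthase lengthens it and the branching enzyme adds side chains. Glycogen phosphorylase, switched on by phosphorylase kinase, removes glucose units again, while protein phosphatase 1, brought to glycogen by its Ppp1r3 subunits, switches the synthase on and the phosphorylase off. Both enzymes are therefore set by phosphorylation as well as by the amount of their transcript, and phosphorylation was not measured.

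With GalNAc-siRnf10, transcripts of Ppp1r3b, Ugp2, Ppp1r3c and Gys2 rose, by 1.39-fold to 1.78-fold, and none of the other 4 tested genes passed the test. Ppp1r3b, the main glycogen-targeting subunit of the liver, rose by the most of the 8. Thus 4 of the 8 tested genes were called higher and 0 lower. A call here means an adjusted p under 0.05 in the quasi-likelihood test of edgeR, adjusted over all tested genes after Benjamini and Hochberg, and at an unadjusted p under 0.05 there were 5 higher and 0 lower. DESeq2 also gave 4 higher and 0 lower, with 4 and 0 at an unadjusted p under 0.05. Over all tested genes, 14.0% were called in either direction, 6.71% higher and 7.28% lower. For 6 of the 8 genes the 3 control and 3 treated mice did not overlap in normalized count, against 32.8% of all tested genes. The median log2 fold change was 0.31 over the 8 genes and 0.0022 over all tested genes. Of all called genes, 943 were higher and 1022 lower, and with scaling by the library total, without TMM factors, these became 747 and 1381, with the same 4 glycogen genes called. The replicates are separate mice, and in whole liver fewer cells of a type and less RNA per cell cannot be told apart.

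**Figure D1:**
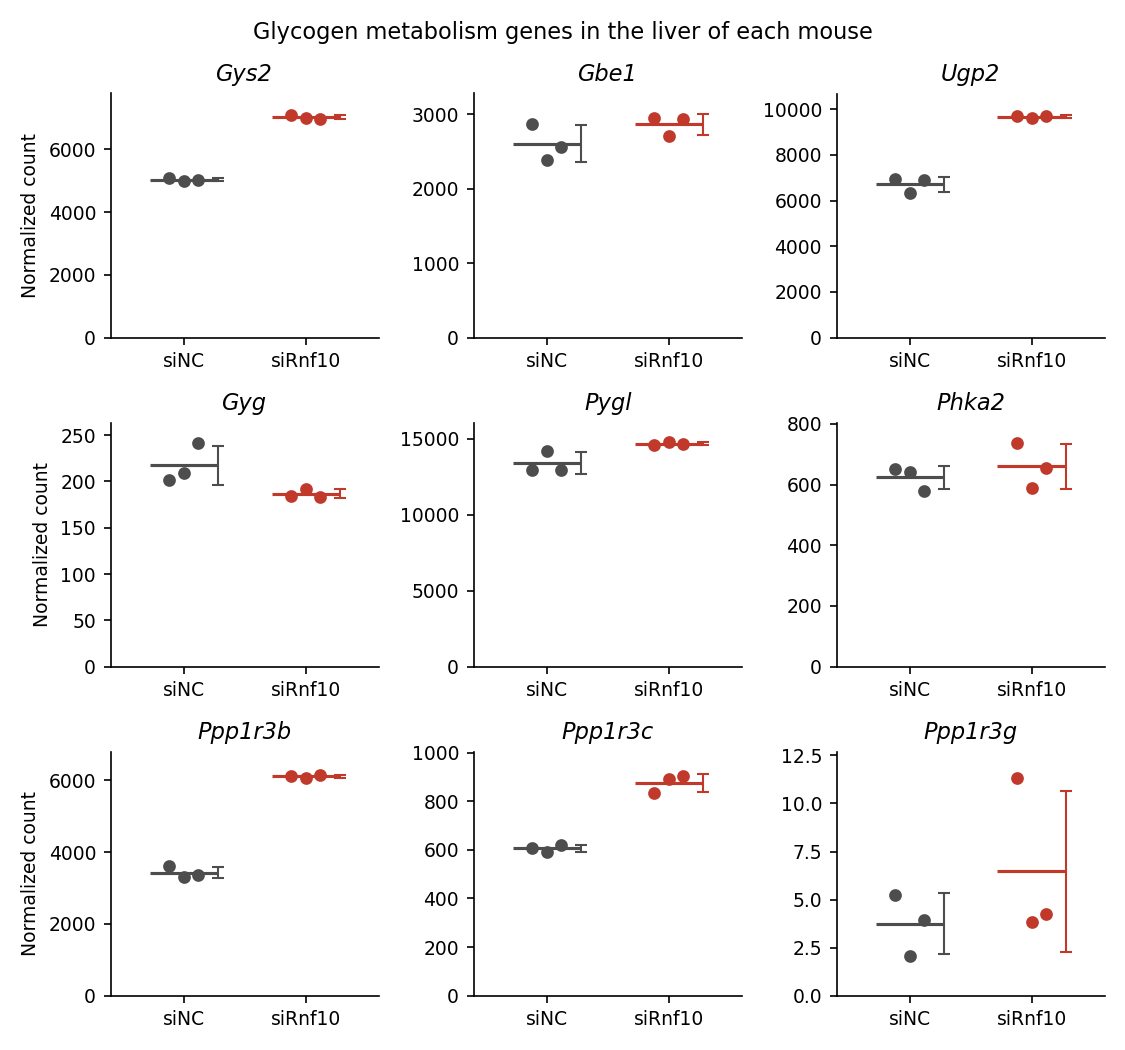
Normalized counts (vertical axes, from 0) of the 9 glycogen metabolism genes in the liver of each mouse, 3 GalNAc-siNC (grey, labelled siNC) and 3 GalNAc-siRnf10 (red, labelled siRnf10) mice, with points for mice, horizontal lines for group means and bars for 1 SD. The treated mice lie above all control mice for Gys2, Ugp2, Ppp1r3b, Ppp1r3c and Pygl, lie below them for Gyg, and overlap with them for Gbe1, Phka2 and Ppp1r3g.

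Of the 4 synthesis genes, Ugp2 and Gys2 rose and Gyg and Gbe1 were not called. Ugp2 (ENSMUSG00000001891, GRCm38 chr11:21321138-21371201, minus strand) encodes UDP-glucose pyrophosphorylase, which makes the glucose donor of the synthase. Its normalized counts were 6927, 6336 and 6893 in the GalNAc-siNC mice and 9716, 9620 and 9697 in the GalNAc-siRnf10 mice. All treated mice lay above all controls, and the treated mice lay closer together. The means were 6719 ± 332.0 and 9678 ± 51.2 (SD, n = 3 each), a log2 fold change of 0.53 (SE 0.057, 95% interval 0.41 to 0.65, adjusted p = 5.29e-06, edgeR). Without GalNAc-siNC mouse 1 it was 0.55 (adjusted p = 4.88e-12, edgeR). The Ugp2 gene model shares 78 bases with Gm12043 on the opposite strand, which had at most 2 counts in a mouse.

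Gyg (ENSMUSG00000019528, chr3:20122084-20155317, minus strand) encodes glycogenin, the protein on which a new glycogen chain starts. Normalized counts were 201.1, 209.4 and 241.1 with GalNAc-siNC and 184.2, 192.2 and 183.2 with GalNAc-siRnf10. The treated mice were all below the controls, by little, and GalNAc-siNC mouse 3 was the highest. The means were 217.2 ± 21.1 and 186.5 ± 4.92 (SD, n = 3 each). The log2 fold change was -0.22 (SE 0.131, 95% interval -0.49 to 0.059), which did not pass the test (adjusted p = 0.311, edgeR), nor did it without GalNAc-siNC mouse 1 (-0.27, adjusted p = 0.194, edgeR).

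Gys2 (ENSMUSG00000030244, chr6:142422613-142473109, minus strand) encodes the liver form of glycogen synthase. Its normalized counts were 5099, 5000 and 5026 with GalNAc-siNC and 7103, 6989 and 6986 with GalNAc-siRnf10. Mice of either group were close to each other, and the groups lay well apart. Means were 5042 ± 50.9 and 7026 ± 66.5 (SD, n = 3 each), a log2 fold change of 0.48 (SE 0.0554, 95% interval 0.36 to 0.60, adjusted p = 1.13e-05, edgeR). Leaving out GalNAc-siNC mouse 1 gave 0.49 (adjusted p = 1.57e-10, edgeR).

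Gbe1 (ENSMUSG00000022707, chr16:70313949-70569716, plus strand) encodes the branching enzyme. The normalized counts were 2874, 2391 and 2561 in control mice and 2950, 2707 and 2946 in treated mice. The groups overlapped because of GalNAc-siNC mouse 1, which was above the lowest treated mouse. With all 6 mice, means were 2608 ± 244.8 and 2868 ± 139.2 (SD, n = 3 each), and the log2 fold change of 0.14 (SE 0.075, 95% interval -0.023 to 0.29) did not pass the test (adjusted p = 0.263, edgeR). Without GalNAc-siNC mouse 1 it was 0.21 and passed (adjusted p = 0.00819, edgeR). The call on the branching enzyme thus rested on 1 control mouse.

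Neither breakdown gene was called. Pygl (ENSMUSG00000021069, chr12:70190811-70231488, minus strand) encodes the liver form of glycogen phosphorylase. Normalized counts were 12937, 14213 and 12966 in the GalNAc-siNC mice and 14564, 14764 and 14674 in the GalNAc-siRnf10 mice. The treated mice were above every control, but GalNAc-siNC mouse 2 lay nearer to them than to its own group. The means were 13372 and 14667, with coefficients of variation of 5.45% and 0.682% (n = 3 each), a log2 fold change of 0.13 (SE 0.0553, 95% interval 0.017 to 0.25) that did not pass after adjustment (adjusted p = 0.126, edgeR). Without GalNAc-siNC mouse 1 it was 0.11 (adjusted p = 0.0852, edgeR), and without GalNAc-siNC mouse 2 it was 0.18 and passed (adjusted p = 0.0241, edgeR). The upper end of the interval of Pygl, 0.25, lay under the lower end of that of Gys2, 0.36.

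Phka2 (ENSMUSG00000031295, chrX:160502166-160598878, plus strand) encodes the liver alpha subunit of phosphorylase kinase, the enzyme that activates the phosphorylase. Its normalized counts were 650.3, 640.5 and 580.0 with GalNAc-siNC and 737.0, 588.0 and 656.0 with GalNAc-siRnf10. The groups overlapped, and GalNAc-siRnf10 mouse 1 was the highest of all 6. Means were 623.6 ± 38.1 and 660.3 ± 74.6 (SD, n = 3 each), with a log2 fold change of 0.081 (SE 0.0994, 95% interval -0.13 to 0.29, adjusted p = 0.66, edgeR). It was 0.11 without GalNAc-siNC mouse 1 (adjusted p = 0.494, edgeR) and -0.0042 without GalNAc-siRnf10 mouse 1 (adjusted p = 0.989, edgeR). Its gene model overlaps Gm15243 on the opposite strand by 115 bases, and Gm15243 had 0 counts in all 6 mice.

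Of the 3 targeting subunit genes listed, Ppp1r3b and Ppp1r3c could be tested and rose. A further tested targeting subunit gene outside the 9, Ppp1r3e, was not called (122.1 ± 28.8 and 105.8 ± 14.6 normalized counts, SD, n = 3 each, log2 fold change -0.20, adjusted p = 0.569, edgeR). Ppp1r3b (ENSMUSG00000046794, chr8:35375739-35388139, plus strand) encodes the subunit also called GL, through which phosphatase 1 acts on glycogen synthase in liver. Normalized counts were 3613, 3314 and 3362 in control mice and 6116, 6070 and 6151 in treated mice. All treated mice were above all controls, with a gap between the groups far wider than the range within either. The means were 3430 ± 160.3 and 6112 ± 41 (SD, n = 3 each), a rise of 1.78-fold. On the log2 scale this was 0.83 (SE 0.0604, 95% interval 0.71 to 0.96, adjusted p = 4e-08, edgeR), and 0.87 without GalNAc-siNC mouse 1 (adjusted p = 3.67e-17, edgeR).

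Ppp1r3c (ENSMUSG00000067279, chr19:36731731-36736653, minus strand) encodes a subunit also known as protein targeting to glycogen, which is not confined to the liver. Normalized counts were 607.6, 591.0 and 620.5 with GalNAc-siNC and 833.0, 892.1 and 904.1 with GalNAc-siRnf10. The lowest treated mouse was above the highest control. The means were 606.4 ± 14.8 and 876.4 ± 38.1 (SD, n = 3 each), a rise of 1.45-fold, with a log2 fold change of 0.53 (SE 0.0831, 95% interval 0.36 to 0.71, adjusted p = 0.000286, edgeR). Leaving out GalNAc-siNC mouse 1 gave 0.53 again (adjusted p = 8.47e-06, edgeR).

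Ppp1r3g (ENSMUSG00000050423, chr13:35958839-35970388, plus strand) encodes a further targeting subunit. Its raw counts were 6, 2 and 4 in the control livers and 10, 4 and 4 in the treated livers. These few reads fell under the filter, the groups overlapped, and a difference was not detectable at this depth. For each of the 4 called genes, the exact 2-sided permutation test over mice gave p = 0.1, and no smaller p is possible with 3 mice in each group. Pygl and Gyg, which were not called, gave p = 0.1 in that permutation test too, so it does not set the called genes apart.

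Promoter sequence is shown for the called genes for which RefSeq gave a window, Ppp1r3c and Ugp2. It is also shown for Gyg, which was not called but had a log2 fold change below 0. The windows of Gbe1, Pygl, Phka2 and Ppp1r3g hold no E-box and are not shown. The E-box is marked because clock factors bind it and the clock genes Per1, Ciart and Nr1d1 also changed in these livers. A link between the E-box and the glycogen genes was not tested. Windows run from 250 bases before a RefSeq start to 50 after it, in GRCm38.p6, on the minus strand, in lower case with the E-box CACGTG in capitals. Gys2 and Ppp1r3b had no entry. Ugp2 has a pair of starts and thus a pair of windows.
Ppp1r3c, chr19:36736555-36736854: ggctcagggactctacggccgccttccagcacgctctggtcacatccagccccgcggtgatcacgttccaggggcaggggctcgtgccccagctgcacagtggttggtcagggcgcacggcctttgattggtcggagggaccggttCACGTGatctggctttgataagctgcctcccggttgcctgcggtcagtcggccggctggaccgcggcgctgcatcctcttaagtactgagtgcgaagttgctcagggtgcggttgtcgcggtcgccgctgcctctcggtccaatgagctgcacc
Gyg, chr3:20155067-20155366: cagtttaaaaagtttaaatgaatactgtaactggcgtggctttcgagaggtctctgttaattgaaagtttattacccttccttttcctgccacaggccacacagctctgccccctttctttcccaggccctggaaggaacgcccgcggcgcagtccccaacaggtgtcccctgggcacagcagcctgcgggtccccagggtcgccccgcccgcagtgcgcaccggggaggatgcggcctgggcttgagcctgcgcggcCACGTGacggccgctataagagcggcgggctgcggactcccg
Ugp2, chr11:21371218-21371517: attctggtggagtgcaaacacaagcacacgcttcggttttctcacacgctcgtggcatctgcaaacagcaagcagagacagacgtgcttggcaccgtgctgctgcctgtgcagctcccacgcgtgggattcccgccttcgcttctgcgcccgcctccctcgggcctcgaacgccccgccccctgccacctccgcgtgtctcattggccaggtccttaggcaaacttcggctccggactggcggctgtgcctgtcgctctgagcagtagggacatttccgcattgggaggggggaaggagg
Ugp2, chr11:21370580-21370879: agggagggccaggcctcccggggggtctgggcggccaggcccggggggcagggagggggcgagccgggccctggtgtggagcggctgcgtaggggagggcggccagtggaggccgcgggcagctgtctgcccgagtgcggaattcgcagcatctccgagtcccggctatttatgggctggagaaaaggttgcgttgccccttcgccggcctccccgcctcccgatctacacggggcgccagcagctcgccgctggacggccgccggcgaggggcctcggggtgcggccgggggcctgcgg

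The E-box of Ppp1r3c begins 104 bases before the start and that of Gyg 8 bases after it, while neither Ugp2 window holds these letters. Of the 7 glycogen genes with an entry, 2 held the E-box, 1 that rose and 1 that was not called. Counted by window this was 2 of 8, against 7.15% of the 32851 promoter windows of the RefSeq table. The forkhead motif GTAAACA stood in none of the 8 windows of the 7 genes and in 3.65% of all windows, and the cAMP response element TGACGTCA in none of the 8 and in 1.79% of all. Both strands were searched, and these motifs do not overlap each other. A match or its absence is a description of the letters in these windows.

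Levels can be set side by side between genes only per length, here as CPM (the count scaled to library size) per kilobase of gene model. The order between genes, and shares and ratios of their levels, thus depend on the model lengths, such as 6895 bases for Pygl and 2657 for Gys2. In the GalNAc-siNC livers, Ugp2 was the most abundant of the 9 at 73.8 ± 3.65, followed by Pygl at 65.4 ± 3.56 and Gys2 at 64 ± 0.646 (SD, n = 3 for each). Pygl and Gys2 overlapped between mice and were not told apart. The middle of the order was Ppp1r3b at 18.6 ± 0.869, overlapping with Gbe1 at 16.4 ± 1.54, and then Ppp1r3c at 7.5 ± 0.183. Phka2 at 3.46 ± 0.211 and Gyg at 3.12 ± 0.304 overlapped, and Ppp1r3g stood far below, at 0.0469 ± 0.0199.

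In the GalNAc-siRnf10 livers the order on this scale changed in 1 place, since Gys2 at 89.1 ± 0.843 stood above Pygl at 71.7 ± 0.489 in every mouse (SD, n = 3). In normalized counts, not divided by length, mean Pygl was above mean Gys2 in both groups. These means were 13372 and 5042 in the controls and 14667 and 7026 in the treated mice, so the change of place holds only per length. Ugp2 was at 106.3 ± 0.562, Ppp1r3b at 33.1 ± 0.222 and Gbe1 at 18.1 ± 0.877. No neighbours in the treated order overlapped, so that Ppp1r3b and Gbe1, which overlapped in the controls, were apart. At the lower end came Ppp1r3c at 10.8 ± 0.471, Phka2 at 3.67 ± 0.414, Gyg at 2.68 ± 0.0708 and Ppp1r3g at 0.0809 ± 0.0525.

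**Figure D2:**
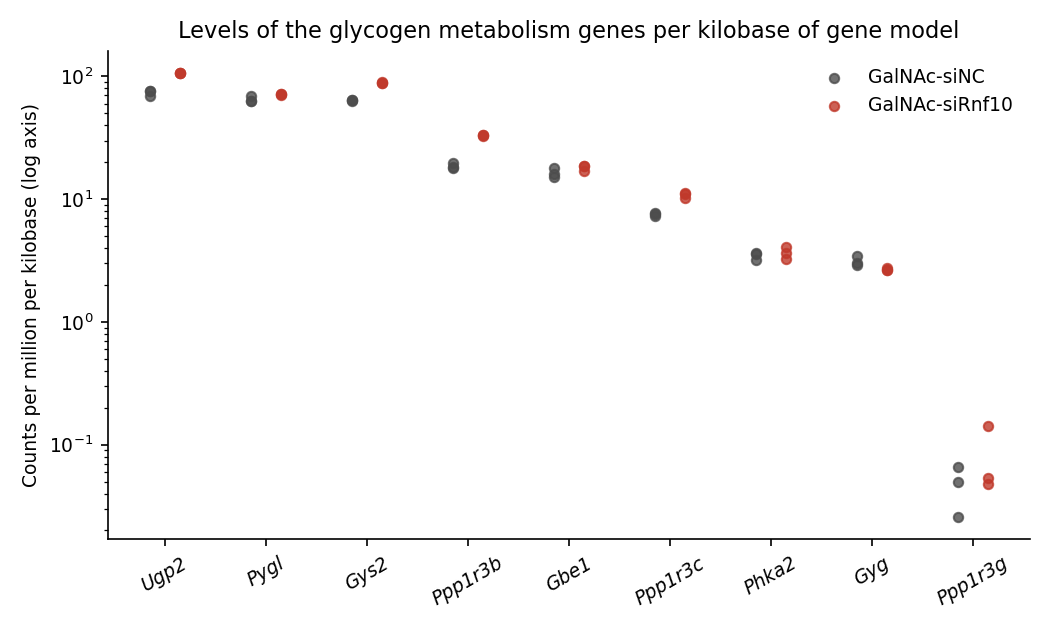
CPM per kilobase of gene model (vertical axis, logarithmic) of the 9 genes in each of the 3 GalNAc-siNC and 3 GalNAc-siRnf10 mice, with genes along the horizontal axis. The levels run from 0.0469 for Ppp1r3g to 73.8 for Ugp2 as control means, and Gys2 and Pygl lie together in the controls and apart in the treated mice.

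The liver forms of the synthase and the phosphorylase made up nearly all of their families. Gys2 gave 99.2% of the summed per-length level of Gys1 and Gys2 in the controls and 99.5% in the treated mice, and Pygl gave 98.4% and 98.5% of that of Pygl, Pygb and Pygm. Phka2 gave 72.6% ± 1.62 of the alpha subunit level in the controls and 72.4% ± 1.05 in the treated mice (SD, n = 3 each), the remainder being Phka1. Among the Ppp1r3 targeting subunits, the share of Ppp1r3b was 68.7%, 65.8% and 65.7% in the controls and 73.5%, 72.1% and 72.7% in the treated mice, and the groups did not overlap. The share of Ppp1r3c went from 26.9% ± 0.713 to 23.8% ± 0.848 (SD, n = 3 each) although its own transcript rose.

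Ratios within a liver do not depend on the scaling between libraries. The ratio of Pygl to Gys2, the phosphorylase to the synthase per length, was 0.977, 1.1 and 0.994 in the controls and 0.79, 0.814 and 0.809 in the treated mice. All treated livers lay below all controls. The ratio of Gys2 to Gbe1 was 3.57, 4.2 and 3.96 against 4.84, 5.22 and 4.76, and that of Ppp1r3b to Ppp1r3c was 2.61, 2.46 and 2.37 against 3.22, 2.99 and 2.98. Both were higher in each treated liver than in any control. The ratio of Ppp1r3b to Gys2 went from 0.291 ± 0.0106 to 0.372 ± 0.00438 (SD, n = 3 each). A ratio shows unequal change of its parts and does not say which of them moved. Its size also depends on the gene model lengths, so a ratio near 1 does not mean equal transcript numbers.

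**Figure D3:**
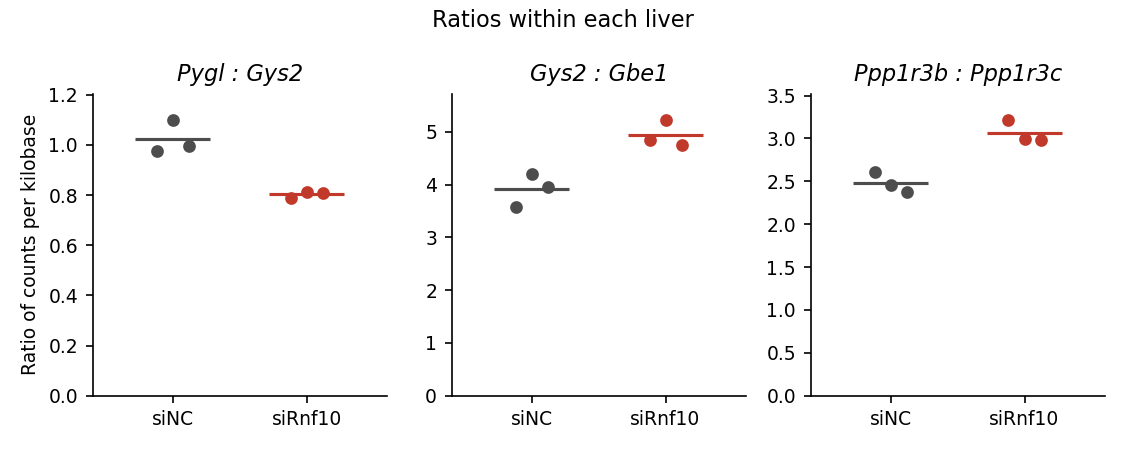
Ratios of counts per kilobase within each liver (vertical axes, from 0) for Pygl to Gys2, Gys2 to Gbe1 and Ppp1r3b to Ppp1r3c, with a point for each of the 3 GalNAc-siNC (siNC) and 3 GalNAc-siRnf10 (siRnf10) mice and a line for the group mean. The treated mice lie below the controls in Pygl to Gys2 (means 0.804 and 1.02) and above them in the other ratios (4.94 against 3.91, and 3.07 against 2.48).

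A list of 23 other genes of glycogen synthesis and breakdown held 18 that could be tested. By edgeR, 0 of these were called higher and 1 lower, against 6.71% and 7.28% of all tested genes. At an unadjusted p under 0.05 there were 1 higher and 1 lower, against 1815 and 1939 of all 14046 tested genes. The median log2 fold change was 0.01. DESeq2 gave the same 0 and 1, and limma voom 0 and 0. The gene called lower was Gaa, the acid alpha-glucosidase that degrades glycogen in lysosomes. Its normalized counts were 2570, 3114 and 2526 with GalNAc-siNC and 2370, 2226 and 2216 with GalNAc-siRnf10. The groups did not overlap, and GalNAc-siNC mouse 2 was the highest. The log2 fold change was -0.27 (SE 0.0802, adjusted p = 0.0332, edgeR), and without that mouse it was -0.17 and not called (adjusted p = 0.117, edgeR). It was also not called without any 1 of the treated mice (adjusted p of 0.0873, 0.146 and 0.159 without mouse 1, 2 and 3, edgeR), nor in the fit corrected for GC content and gene length (-0.13, adjusted p = 0.118).

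The 3 most abundant genes per length among those not called were Pgm1, the phosphoglucomutase between glucose 6-phosphate and glucose 1-phosphate (log2 fold change 0.0026, 95% interval -0.12 to 0.13, adjusted p = 0.984, edgeR), Stbd1, which tethers glycogen to membranes (0.083, -0.068 to 0.23, adjusted p = 0.503, edgeR), and Ppp1ca, a catalytic subunit of phosphatase 1 (-0.12, -0.26 to 0.011, adjusted p = 0.231, edgeR). Thus Pgm1, the step just before Ugp2, had an interval whose upper end, 0.13, was below the lower end for Ugp2, 0.41. The muscle subunit Ppp1r3a was at 0 counts in all livers, and Pygm, Phkg1, Ppp1r3d and Ppp1r3f were too low to be tested.

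Among 5 genes that bring glucose into the hepatocyte or let it out, 3 were called higher and 0 lower, against 6.71% and 7.28% of all tested genes. G6pc, the catalytic subunit of glucose-6-phosphatase, which frees glucose for release, went from 6616 ± 416.1 to 9985 ± 54.6 normalized counts (SD, n = 3 each, log2 fold change 0.59, adjusted p = 1.9e-06, edgeR). Slc37a4, which carries glucose 6-phosphate to that enzyme, went from 4479 ± 115.4 to 6411 ± 20.5 (log2 fold change 0.52, adjusted p = 6.4e-06, edgeR). Both rose by about as much as Gys2 and Ugp2 did, at log2 fold changes of 0.48 and 0.53. Slc2a2, the main glucose transporter of hepatocytes, went from 9509 ± 686.7 to 11248 ± 196.9 (0.24, adjusted p = 0.0114, edgeR), a call that was lost without GalNAc-siNC mouse 3 (adjusted p = 0.0545, edgeR) and without GalNAc-siRnf10 mouse 1, 2 or 3 (adjusted p of 0.0706, 0.0581 and 0.0929, edgeR), and with scaling by the library total (adjusted p = 0.0504, edgeR). Gckr was not called (0.11, adjusted p = 0.23, edgeR).

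Of 14 receptors and kinases through which hormones act on glycogen enzymes, 1 was called higher and 0 lower, the median log2 fold change was -0.10, and at an unadjusted p under 0.05 there were 1 higher and 4 lower. DESeq2 also called 1 higher and 0 lower. Of all tested genes, edgeR called 6.71% higher and 7.28% lower. The glucagon receptor Gcgr was at -0.079 (95% interval -0.20 to 0.047, adjusted p = 0.437, edgeR) with all mice and passed at -0.13 without GalNAc-siNC mouse 1 (adjusted p = 0.0492, edgeR). Without that mouse, 1 gene of this list was called higher and 5 lower, against 1395 and 1469 of all 14343 genes tested in that fit. Calm2, a calmodulin gene, was not called (0.086, adjusted p = 0.502, edgeR).

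**Figure D4:**
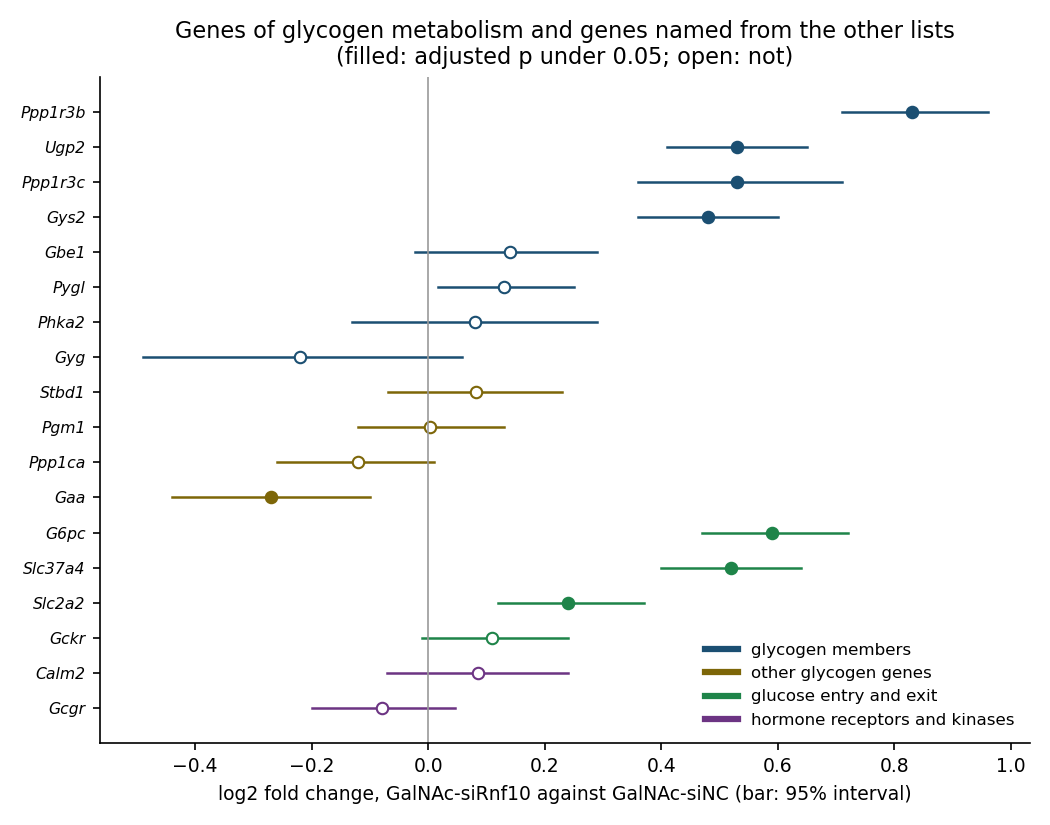
The log2 fold change of GalNAc-siRnf10 against GalNAc-siNC (horizontal axis, bars show the 95% interval) for the 8 tested glycogen metabolism genes and 10 genes named from the 3 other lists, filled where the adjusted p was under 0.05. Ppp1r3b (0.83), Ugp2 (0.53), Ppp1r3c (0.53) and Gys2 (0.48) lie to the right of 0 with G6pc (0.59) and Slc37a4 (0.52), while the intervals of Pgm1, Stbd1, Ppp1ca, Gckr, Gcgr and Calm2 include 0.

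Glycogen genes of liver vary over the day, and clock transcripts differed between the groups. Of 12 tested clock genes, 5 were called higher and 1 lower, and 8 had groups that did not overlap. The shares over all tested genes were 6.71%, 7.28% and 32.8%. Per1, a period gene, went from 350.9 ± 18.8 to 1171 ± 62.9 normalized counts (SD, n = 3 each, log2 fold change 1.74, adjusted p = 6.64e-10, edgeR). The log2 fold change was 1.29 for the clock-associated repressor gene Ciart (adjusted p = 4.23e-07, edgeR), 0.75 for the cryptochrome gene Cry1 (adjusted p = 0.000992, edgeR) and -0.68 for Nr1d1, which encodes the repressor REV-ERB alpha (adjusted p = 1.78e-05, edgeR). Nr1d1 overlaps Thra by 263 bases on the opposite strand, Thra had at most 281 counts in a mouse, and whether the counting used strand was not given in the sources used here. The part of the clock genes in the rise of Ppp1r3b, Ugp2, Ppp1r3c and Gys2 was not tested.

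Markers of hepatocytes, which express these enzymes, also moved. Of 6 hepatocyte markers 4 were called higher, against 6.71% of all tested genes. The summed normalized counts of the 6 were 1610138 to 1706159 in the controls and 2380709 to 2464442 in the treated mice. Most of this was Alb, 1 of the 4 called (log2 fold change 0.64, adjusted p = 1.4e-07, edgeR). The others were Ttr (0.66, adjusted p = 0.0138, edgeR), Cyp2e1 (0.29, adjusted p = 0.000326, edgeR) and Serpina1c (0.44, adjusted p = 0.0357, edgeR), the last of a family of near-identical copies between which reads may be split. Apoa1 and Asgr1 were not called. Their part in the result was not tested.

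Of the markers of other cells, 0 of 4 Kupffer cell genes were called (summed normalized counts of 2222 to 2667 in the controls and 2576 to 2627 in the treated mice), 0 of 4 cholangiocyte genes (175.0 to 249.6 and 150.3 to 171.1) and 0 of 4 erythroid genes (3527 to 6156 and 4525 to 5221). Of 4 endothelial genes Clec4g was called higher (0.52, adjusted p = 0.00426, edgeR, sums of 1589 to 1605 and 1604 to 1730). Of 4 stellate cell genes it was Dcn (0.36, adjusted p = 0.00201, edgeR, sums of 2079 to 2116 and 2382 to 2425). Over all tested genes, 14.0% were called in either direction. The 4 skeletal muscle genes, whose tissue also makes glycogen, summed to at most 5.22 in any liver, and the 4 pancreatic genes to at most 37.3.

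The rises of Ppp1r3b, Ugp2, Ppp1r3c and Gys2 were called under each of 16 other settings. Their log2 fold changes ranged from 0.79 to 0.87 for Ppp1r3b, 0.45 to 0.55 for Ugp2, 0.47 to 0.57 for Ppp1r3c and 0.42 to 0.49 for Gys2. Ppp1r3b was above the other 7 tested genes throughout. For Gbe1 the range was 0.075 to 0.21, for Pygl 0.087 to 0.18 and for Gyg -0.29 to -0.14, and that of Phka2, -0.0042 to 0.16, crossed 0.

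**Figure D5:**
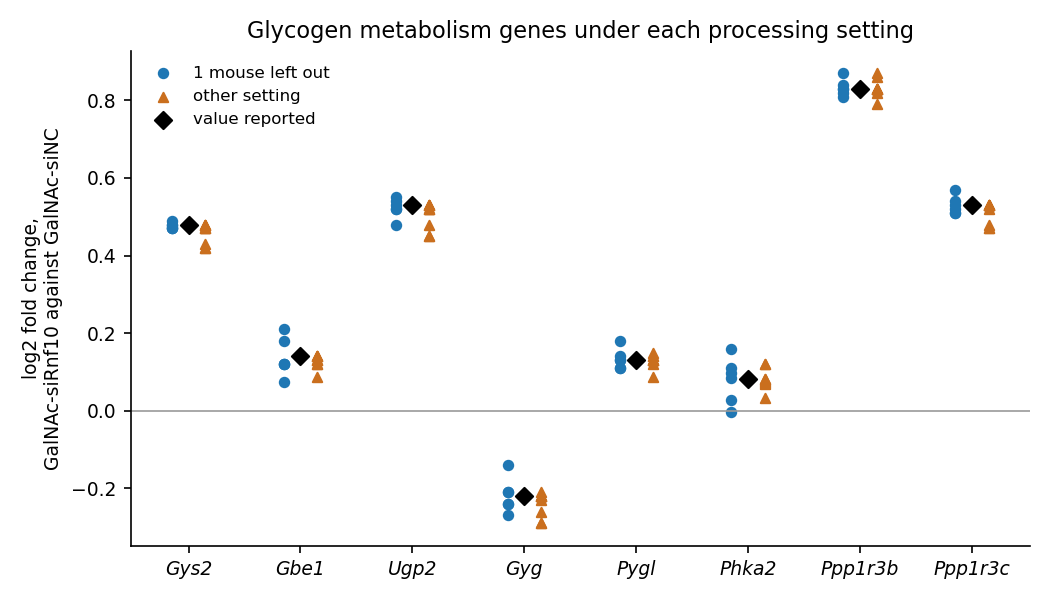
The log2 fold change (vertical axis) of each of the 8 tested genes (horizontal axis) with all 6 mice as reported (black diamonds), with 1 mouse left out (blue circles) and under the other settings (orange triangles). Ppp1r3b ranges from 0.79 to 0.87, Ugp2, Ppp1r3c and Gys2 stay between 0.42 and 0.57, and Phka2 reaches -0.0042.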

How the data were processed

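Liver RNA of 6 mice was sequenced, 3 per group, and groups were taken from the treatment label. Stranded mRNA libraries were read in paired ends of 150 bases, and the authors deposited raw counts per gene with the length of each gene model. The submitters' processing notes name HISAT2, DESeq2, GRCm38 and mm10. The counting tool, the annotation release and the strand setting were not given in the sources used here. Of the 55487 gene IDs, 346 had no symbol in the annotation used.

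Counts were filtered with filterByExpr, scaled with TMM factors and tested with edgeR 4.0.16 in R 4.3.3 (quasi-likelihood F-test, robust fit, treatment as the only term, Benjamini-Hochberg adjustment over all 14046 tested genes, called at an adjusted p under 0.05). The biological coefficient of variation was 9.28%. A normalized count is a count scaled to the mean effective library. Alternatives were RLE, upper quartile and library-total scaling, other filters, DESeq2 1.42.0, limma 3.58.1 (voom), a replicate block, spline offsets for GC content and gene length, and leaving out each mouse. Library-total scaling was added after seeing the data.

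The 9 genes, the lists and the clock genes were chosen with earlier results of these data known, and the promoter motifs after the values had been seen. Named were Rnf10, the 9 genes, each called gene of the 3 neighbouring lists with the 3 highest per length of those not called, the 4 clock genes with the smallest adjusted p, called cell type markers and defining markers at 0. Other genes, such as Apoa1, Asgr1 and Ppp1r3e, were named outside this rule after their values were seen, and some genes of the lists are counted but not reported here. In a simulation of the comparison on 13999 genes, 180 of 200 genes changed by a log2 fold of 1 were recovered and 10 of 190 calls were false. It gave every gene the same dispersion and let no mouse stand apart. Its change was larger than that of any tested glycogen gene, at most 0.83 for Ppp1r3b. The recovery therefore does not carry over to changes of their size. Figures were drawn with matplotlib 3.10.9.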

Additional observations from a re-analysis of the deposited data

How the results depend on the processing

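Under 16 alternatives each, the 8 tested glycogen genes kept their direction, except Phka2, which was -0.0042 without GalNAc-siRnf10 mouse 1 (-0.0042 to 0.16 over the 6 fits that left out 1 mouse). The calls of Ppp1r3b, Ugp2, Ppp1r3c and Gys2 held in all of these, with 4 to 5 of the glycogen genes called when 1 mouse was left out, the fifth being Gbe1 without GalNAc-siNC mouse 1 and Pygl without GalNAc-siNC mouse 2. Where a call also needed a log2 fold change of 0.5 or more in size, 3 were called, since Gys2 was at 0.48. Over all genes, 1965 were called, 1053 to 2864 with 1 mouse left out (2864 without GalNAc-siNC mouse 1, and 1053, 1128 and 1128 without GalNAc-siRnf10 mouse 1, 2 and 3) 1042 at an adjusted p under 0.01 and 823 with the fold change limit. Of the other glycogen genes, 1 was called, 0 to 2 with 1 mouse left out, and 0 with limma voom, at an adjusted p under 0.01 or with the fold change limit (at an unadjusted p under 0.05, edgeR and voom each gave 1 higher and 1 lower). Over all 14046 tested genes, voom gave 1997 higher and 1875 lower at that unadjusted level, and edgeR 1815 and 1939. With the correction for GC content and gene length 1 was called again, but not Gaa. Of the glucose entry and exit genes, 3 were called, 2 to 4 with 1 mouse left out, and 2 with library-total scaling, at an adjusted p under 0.01 or with the fold change limit. Of the receptors and kinases, 1 was called, 0 to 6 with 1 mouse left out, 2 with library-total scaling and 2 with the GC and length correction, and 0 at an adjusted p under 0.01 or with at least 10 counts in every mouse (there, 0 had a higher and 4 a lower level at an unadjusted p under 0.05). Of all 12799 genes tested with that filter, 1704 were higher and 1921 lower at that unadjusted level. The cause of these changes in the calls was not tested otherwise. Same-numbered mice gave correlations of -0.000993, 0.0272 and -0.0337, and 1 of 3 controls correlated best with its own number. With deviations from the mean of only 3 mice a group, these values cannot decide whether the mouse numbers pair the mice. With the number as a replicate block, 1816 genes were called, 4 of the glycogen genes among them, and 2350 and 5 with the block and the GC and length correction together, where Pygl was 0.15 (adjusted p = 0.0465, edgeR). Library-total scaling moved the median log2 fold change of all genes to -0.045 and the share of calls that were higher from 48.0% to 35.1%. With 3 mice a group, changes as small as that of Pygl were called or not depending on 1 mouse, and depth limited Ppp1r3g.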

Other observations

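The treated livers were more alike than the control livers. Over the 3512 genes whose normalized count averaged 1000 or more, the median absolute log2 difference between mice was 0.16, 0.12 and 0.096 for the 3 GalNAc-siNC pairs and 0.049, 0.048 and 0.049 for the 3 GalNAc-siRnf10 pairs. Over the 5 glycogen genes at this level (Ugp2, Gys2, Gbe1, Pygl and Ppp1r3b) it was 0.13, 0.021 and 0.099 in the controls and 0.02, 0.0083 and 0.012 in the treated mice. Gbe1 varied most of the 5 between GalNAc-siNC mice 1 and 2, by 0.27. The difference in spread was not tested.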
